A study of Mus musculus with 19 samples.

Results

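The interleukin-1 (IL-1) family was followed through 10 of the 34807 genes of the table, taken by name and not by their values. They are the ligands Il1a, Il1b, Il33, Il18 and Il36g (listed under its older symbol Il1f9), the antagonist Il1rn, the receptors Il1r1 and Il1rl1, the shared receptor chain Il1rap and the decoy receptor Il1r2. The samples were tumours and normal skin of mice, and bulk RNA of each was sequenced as 1 library, 19 in all. BRAFV600E, an activated form of the kinase BRAF, had been induced in female mice on a C57BL/6J background at 7 to 20 weeks of age. This was done by CreERT2, a Cre recombinase that works once tamoxifen is given. The study's methods differ in that they name mice of either sex and a narrower range of ages. The genotypes were Ivl:BRAFV600E (6 tumours), K5:BRAFV600E (5 tumours), K14:BRAFV600E (4 tumours) and WT (4 samples of normal skin from control littermates). Cre from the Ivl promoter acts in committed basal and suprabasal keratinocytes, and Cre from the Krt5 and Krt14 promoters acts in the basal stem population. Per the study's methods, tamoxifen was put on the shaved back skin of Ivl mice, and 4-hydroxytamoxifen on that of K5 and K14 mice. Tumours were taken at the clinical endpoint. Tumours arose at several body sites in Ivl mice and on the back in K5 and K14 mice. The study also reported a later onset and slower growth of tumours in Ivl mice. The driver therefore cannot be told apart from the inducing drug, the body site, the time to tumour or the growth rate. The study merged the K5 and K14 tumours into 1 group of 9, and the same was done here after the comparison of the 2 drivers below.

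IL-1 family cytokines are alarm signals of barrier tissues. IL-1 alpha (Il1a) and IL-1 beta (Il1b) bind the receptor IL1R1 (Il1r1), which then recruits IL1RAP (Il1rap) and passes the signal through MyD88 to NF-kB. The receptor antagonist (Il1rn) takes the place of the ligand on IL1R1 without signalling, and IL1R2 (Il1r2) binds ligand but lacks the signalling domain. IL-33 (Il33) signals through ST2 (Il1rl1) with the same shared chain, and IL-36 gamma (Il36g) through the IL-36 receptor with it. IL-18 (Il18) has a receptor of its own. Keratinocytes are a main source of IL-1 alpha, IL-33, IL-18 and IL-36 in the skin, whereas IL-1 beta is made mostly by myeloid cells.

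Positions are on the mouse genome build GRCm38. Il1a (ENSMUSG00000027399, chr2:129299610-129309972, minus strand) and Il1b (ENSMUSG00000027398, chr2:129364570-129371139, minus strand) are neighbours. Il36g (ENSMUSG00000044103, chr2:24186476-24193568, plus strand) and Il1rn (ENSMUSG00000026981, chr2:24336853-24351494, plus strand) lie elsewhere on the same chromosome. Il1r2 (ENSMUSG00000026073, chr1:40074079-40125231), Il1r1 (ENSMUSG00000026072, chr1:40225080-40317257) and Il1rl1 (ENSMUSG00000026069, chr1:40429570-40465415) form a row on the plus strand. Il33 (ENSMUSG00000024810, chr19:29925114-29960718), Il18 (ENSMUSG00000039217, chr9:50554827-50581840) and Il1rap (ENSMUSG00000022514, chr16:26581704-26730117) are on the plus strands of other chromosomes. Exon bases of Il1a, Il1b and Il1rap are shared with a gene on the opposite strand. Those genes, Gm14023, Il1bos and Gm20319, did not exceed 1.39, 1.15 and 0.311 CPM (the level measure defined below) in any library.

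The promoters of the 4 ligand genes on chromosome 2 are shown because the results below turn on the level of Il36g and on the balance of Il1rn with Il1a and Il1b. Each run is the 250 bases before a RefSeq start site (GRCm38.p6), read 5′ to 3′ on the strand of the gene. Il1rn has 3 such starts in RefSeq, of which the most upstream is printed. The 15 promoters of the 10 genes were searched on both strands for an AP-1 motif (TGACTCA or TGAGTCA), a STAT motif (TTCNNNGAA), a C/EBP motif (TTGCNNAA), a TATA box (TATAAA) and the NF-kB consensus, and capitals mark the matches.
Il1a (chr2:129309973-129310222, minus strand): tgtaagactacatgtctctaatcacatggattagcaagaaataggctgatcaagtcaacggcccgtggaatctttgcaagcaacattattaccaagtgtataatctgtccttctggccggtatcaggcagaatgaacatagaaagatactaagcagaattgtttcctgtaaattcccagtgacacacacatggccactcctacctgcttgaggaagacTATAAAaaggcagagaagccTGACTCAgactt
Il1b (chr2:129371140-129371389, minus strand): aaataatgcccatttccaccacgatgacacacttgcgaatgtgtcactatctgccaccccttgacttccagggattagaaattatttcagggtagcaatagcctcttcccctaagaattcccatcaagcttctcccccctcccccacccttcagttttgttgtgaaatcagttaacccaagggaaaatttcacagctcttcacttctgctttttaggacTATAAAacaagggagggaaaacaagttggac
Il36g (chr2:24186226-24186475, plus strand): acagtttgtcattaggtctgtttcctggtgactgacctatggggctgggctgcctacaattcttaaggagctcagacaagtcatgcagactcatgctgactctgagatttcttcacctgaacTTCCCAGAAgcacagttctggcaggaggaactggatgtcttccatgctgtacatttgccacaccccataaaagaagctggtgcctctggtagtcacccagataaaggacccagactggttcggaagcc
Il1rn (chr2:24336610-24336859, plus strand): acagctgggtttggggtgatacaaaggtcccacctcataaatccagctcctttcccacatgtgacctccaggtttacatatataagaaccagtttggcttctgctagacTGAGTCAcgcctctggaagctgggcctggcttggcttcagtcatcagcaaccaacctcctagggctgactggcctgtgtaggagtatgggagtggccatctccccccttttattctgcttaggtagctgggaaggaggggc
The Il1a promoter held a TATA box from -32 to -27 and an AP-1 motif from -12 to -6, counted from the start site. The Il1b promoter held a TATA box from -31 to -26. The upstream Il1rn promoter held an AP-1 motif from -141 to -135, and the Il36g promoter held a STAT motif from -128 to -120. Among the 32851 promoters of the RefSeq table, the AP-1 motif occurred in 4.46%, the TATA box in 12.4%, the STAT motif in 7.02%, the C/EBP motif in 9.56% and the NF-kB consensus in 7.25%. An NF-kB match was found at 1 of the 15 promoters, a start of Il1r1 from -232 to -223. These matches are letters in a window, and no binding was measured.

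Total counts per library lay between 45715309 and 72609771, and 32031 genes passed the filter and were tested. Levels are given as CPM, the counts of a gene set to a common library total, scaled by the trimmed mean of M values (TMM), a factor that sets most genes of 2 libraries level. This factor was 1.43 to 1.66 in the skin libraries and 0.806 to 1.15 in the tumours. The skin libraries held much muscle RNA (summed CPM of 9 skeletal muscle markers 3325 to 14302, against 6.19 to 7113 in tumours) and less keratinocyte RNA (summed CPM of 10 differentiated keratinocyte markers 2745 to 5214, against 11697 to 59350). All 10 differentiated keratinocyte markers rose in both tumour groups, and their median log2 fold change was 2.97 in Ivl tumours and 3.01 in K5/K14 tumours. Of 7 basal keratinocyte markers 4 rose in Ivl tumours, and 6 rose and 1 fell in K5/K14 tumours. Of the other marker lists, 0 of 9 muscle, 0 of 9 sebaceous, 0 of 9 adipocyte and 1 of 11 T cell and innate lymphoid markers fell in Ivl tumours. There 15.5% of all genes fell. In K5/K14 tumours 8, 7, 6 and 5 of them fell, beside 38.9% of all genes. Fibroblast (0 and 2 of 9), endothelial (1 and 2 of 8) and mast cell markers (2 and 2 of 9) rose beside 20.4% and 23.2% of all genes. Of the same lists, 0 and 1 fibroblast, 0 and 1 endothelial and 2 and 2 mast cell markers fell. The part of keratinocyte content in the results below was not tested. In bulk RNA, fewer cells of a type and less RNA per cell cannot be told apart.

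The deposited counts had been adjusted for a sequencing batch. Ivl tumours 1, 2 and 3 and K5 tumour 1 carried a trace of it, in that the mean CPM of these 4 and that of the other 15 differed by less than 0.1 log2 for 96.6% of 13954 genes, against a median of 29.5% over all 3876 sets of 4 libraries. The labels do not name the batch of a library. All 10 genes of the family shared the trace, with differences between -0.06 and 0.07 log2, although the 4 libraries are all tumours and the other 15 include all the skin. The calls on the 10 genes, their ratios and the counts of the pathway lists below are therefore also given within the 15 libraries. These hold 3 Ivl, 4 K5, 4 K14 and 4 skin libraries. There 2 of 9 muscle, 6 of 9 sebaceous, 5 of 9 adipocyte, 3 of 9 fibroblast and 2 of 11 T cell and innate lymphoid markers fell in Ivl tumours, beside 32.7% of all genes, and 8, 7, 7, 1 and 5 in K5/K14 tumours, beside 42.3%. Most sebaceous and adipocyte markers were thus lowered in Ivl tumours too once the set of 4 was left out. However, 1 adipocyte marker was raised there. The summed adipocyte CPM was 1709, 3486 and 98.0 in Ivl tumours 4, 5 and 6, against 306 to 1053 in skin, so adipocyte RNA was not low in all of them.

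In normal skin the family was led by Il36g, Il18 and Il1r2. Per kilobase of exon their levels were 16.7 ± 3.25, 15 ± 5.69 and 13.9 ± 7.27 CPM per kb (SD, n = 4). Il33, Il1r1 and Il1rn followed at 8.96, 7.25 and 7.04 CPM per kb, and Il1rap, Il1a, Il1rl1 and Il1b were lowest at 2.14, 1.53, 1.19 and 1.08 CPM per kb. Of the 9 neighbouring pairs in this order, 8 overlapped between libraries, and the gap between Il1rn and Il1rap did not.

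By mean level per kilobase, the ligands came first and the receptors last in K5/K14 tumours. Il36g reached 278 ± 72.2 CPM per kb (SD, n = 9), above the range of Il18, the next gene, in all 9 tumours. Il18, Il33 and Il1a followed with 88.7, 72.8 and 28.4 CPM per kb, then Il1rn with 15.9, Il1b with 7.93, Il1r2 with 7.82, Il1rap with 5.43, Il1r1 with 5.39 and Il1rl1 with 1.6 CPM per kb. Neighbours overlapped in 6 of 9 pairs. In Ivl tumours Il36g, Il18 and Il33 also came first, at 179 ± 101, 78.3 ± 48.8 and 65.4 ± 37.3 CPM per kb (SD, n = 6), but Il1rn came next at 42.6 CPM per kb, above Il1b at 17.7 and Il1a at 14.6 CPM per kb. Neighbours in this order overlapped in 8 of 9 pairs. Exon lengths are those of all annotated transcripts together, so a gene with several transcripts, such as Il1rn, is set low on this scale.

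**Figure D1:**
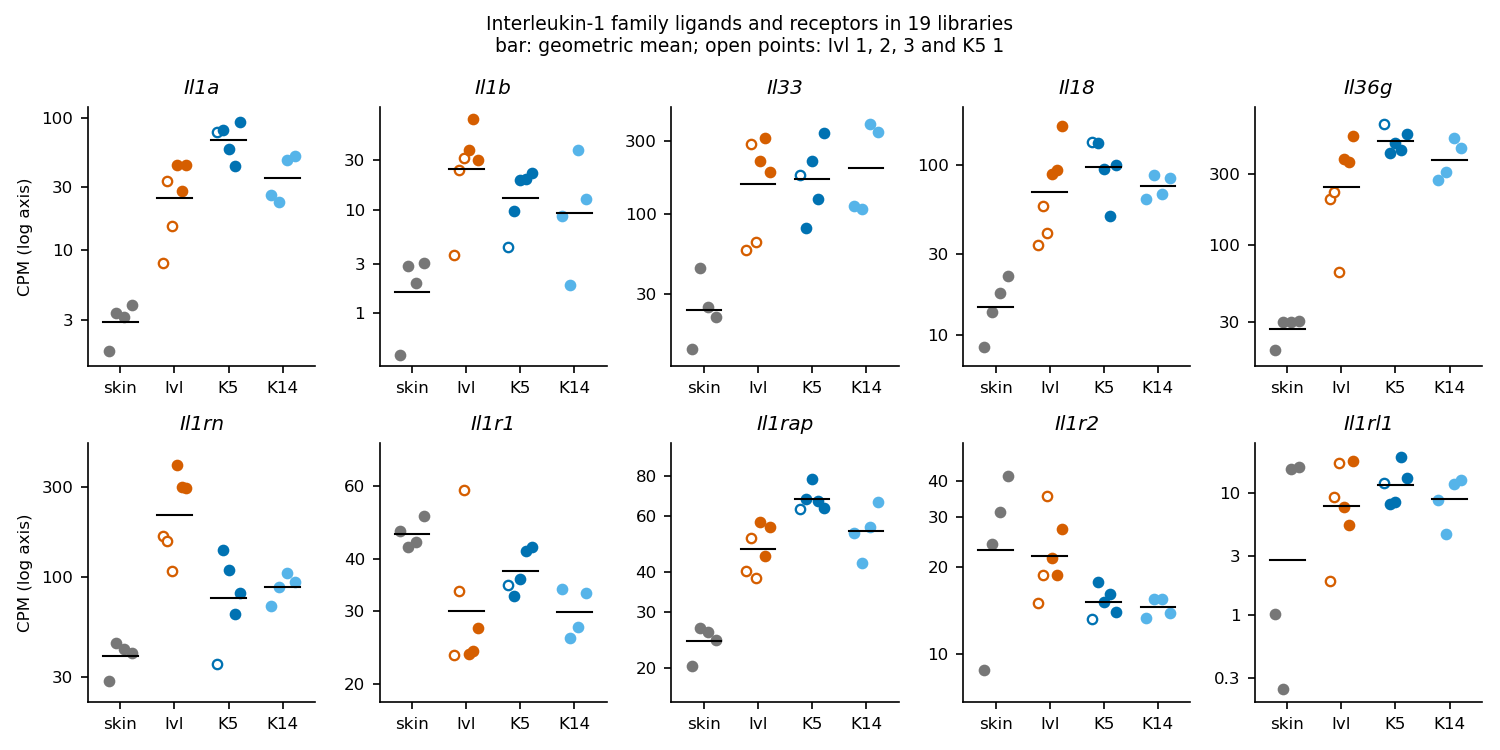
CPM (log axis) of the 10 genes in each library of normal skin, Ivl, K5 and K14 tumours, with a bar at the geometric mean of the group and open points for Ivl tumours 1, 2 and 3 and K5 tumour 1. The 5 agonist ligands lie above skin in nearly every tumour, Il1rn is highest in Ivl tumours, and Il1r1, Il1r2 and Il1rl1 overlap or lie below skin.

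The first question was how the family differed between tumours and normal skin. All 5 agonist ligands, the antagonist Il1rn and the shared chain Il1rap were raised in both tumour groups, 7 of the 10 genes in each. Among all genes tested 20.4% were raised in Ivl tumours and 23.2% in K5/K14 tumours (edgeR quasi-likelihood test, Benjamini-Hochberg adjusted p under 0.05 over all genes). Within the 15 libraries the same 7 genes were raised in both groups, beside 22.2% and 23.9% of all genes. All 7 log2 fold changes in Ivl tumours were larger there: Il1a 3.67, Il1b 4.51, Il33 3.22, Il18 2.92, Il36g 3.95, Il1rn 3.08 and Il1rap 1.11. In K5/K14 tumours they were 4.13, 2.98, 3.05, 2.47, 3.97, 1.28 and 1.34, some larger and some smaller than over all 19. The 2 comparisons share the 4 skin libraries. Leaving out any 1 of the 19 libraries kept all 7 in both.

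Il1a was among the most changed. Its level in the 4 skin libraries was 1.73, 3.35, 3.13 and 3.84 CPM. The 6 Ivl tumours ran from 8.07 to 44.1 CPM with a median of 30.8, and the 9 K5/K14 tumours from 23.3 to 92.8 CPM with a median of 51.9. Every tumour lay above every skin library. The fold change over skin was 9.46 in Ivl tumours (log2 3.24 ± 0.49 SE, adjusted p = 5.9e-05) and 18.4 in K5/K14 tumours (log2 4.2 ± 0.51, adjusted p = 3.8e-06).

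Il1b, the myeloid ligand, was the most scattered of the ligands in tumours. Skin held 0.396, 2.86, 1.97 and 3.01 CPM. Ivl tumours ran from 3.64 to 75.3 CPM around a median of 30.9, a 20.7-fold span, and K5/K14 tumours from 1.84 to 37.3 CPM around a median of 12.6. All 6 Ivl tumours and 8 of 9 K5/K14 tumours lay above every skin library, the exception being K14 tumour 2. The log2 fold change over skin was 4.01 ± 0.87 in Ivl tumours (adjusted p = 0.0016) and 2.85 ± 0.79 in K5/K14 tumours (adjusted p = 0.0052). Summed CPM of 12 neutrophil markers was 3.08 to 18.0 in skin, 9.57 to 67.6 in Ivl tumours and 23.8 to 84.1 in K5/K14 tumours. Of the 12, 6 and 7 were raised, beside 20.4% and 23.2% of all genes, and 0 were lowered. Within the 15 libraries 6 were raised and 1 lowered in Ivl, and 8 raised and 0 lowered in K5/K14 tumours. Ly6g, a defining marker, was at 0 in all 4 skin libraries. The summed level of 12 macrophage and monocyte markers overlapped between skin (148 to 1538 CPM) and tumours (270 to 1034 CPM). Of these, 1 was raised and 0 lowered in Ivl, and 2 raised and 1 lowered in K5/K14 tumours. Within the 15 libraries 1 was raised and 1 lowered in Ivl, and 2 raised and 4 lowered in K5/K14 tumours. The part of either cell type in the change of Il1b was not tested.

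Il36g, an alarm signal of the outer epidermis, had the highest mean level per kilobase of the 10 genes in all 3 groups. Skin held 19.5, 30.2, 29.9 and 30.5 CPM. Ivl tumours ran from 65.4 to 541 CPM around a median of 293, and K5/K14 tumours from 273 to 657 CPM around a median of 450. No tumour overlapped skin. The log2 fold change was 3.42 ± 0.43 in Ivl tumours (adjusted p = 2e-05) and 4.05 ± 0.44 in K5/K14 tumours (adjusted p = 1.5e-06). Il36g and Il1a stand in a list that the study chose on these samples, so their direction is not independent of it.

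Il33 and Il18 rose in both groups too. Il33, stored in the nucleus and released on damage, had 13.2, 44.3, 24.6 and 21.3 CPM in skin, 58.3 to 314 CPM in Ivl tumours (median 205) and 81.4 to 382 CPM in K5/K14 tumours (median 179). Its log2 fold change was 2.87 ± 0.59 (adjusted p = 0.0009) and 3.02 ± 0.57 (adjusted p = 0.00028). Il18, which caspase-1 cleaves before release, had 8.44, 13.6, 17.6 and 22.2 CPM in skin, 34.0 to 170 CPM in Ivl tumours (median 73.3) and 50.6 to 137 CPM in K5/K14 tumours (median 87.6), with log2 fold changes of 2.38 ± 0.43 (adjusted p = 0.00025) and 2.56 ± 0.42 (adjusted p = 6.1e-05). All 15 tumours lay above every skin library for both genes.

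Il1rn, the antagonist, was raised more in one tumour group than in the other. Skin held 28.6, 45.3, 42.2 and 39.8 CPM. The Ivl tumours ran from 108 to 393 CPM around a median of 230, all above skin, with a log2 fold change of 2.60 ± 0.37 (adjusted p = 3.3e-05). The K5/K14 tumours ran from 35.1 to 140 CPM around a median of 89.4, with 8 of 9 above every skin library and K5 tumour 1 inside the skin range, and a log2 fold change of 1.17 ± 0.33 (adjusted p = 0.0054). With library totals in place of TMM this last value fell to 0.36 and was not called (adjusted p = 0.23). Reads were summed over the gene, so the secreted and intracellular forms, which start at different promoters, were not separated.

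Among the receptors, Il1rap alone rose. The shared chain had 20.3, 26.7, 25.9 and 24.5 CPM in skin, 38.2 to 57.3 CPM in Ivl tumours (median 48.0) and 42.5 to 77.9 CPM in K5/K14 tumours (median 63.3), with no overlap. Its log2 fold change was 0.97 ± 0.16 (adjusted p = 8.1e-05) and 1.34 ± 0.15 (adjusted p = 2e-06). With library totals in place of TMM the Ivl value was 0.26 and was not called (adjusted p = 0.091).

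Il1r1, the signalling receptor of IL-1, went the other way without passing the test. Skin held 46.9, 42.8, 44.0 and 50.9 CPM, a narrow range. Of the Ivl tumours 5 lay below it, at 23.5 to 33.6 CPM, and Ivl tumour 3 lay above it at 58.6 CPM. Of the K5/K14 tumours, which ran from 25.8 to 42.9 CPM, 8 lay below every skin library. The log2 fold change was -0.54 ± 0.21 in Ivl (adjusted p = 0.056) and -0.43 ± 0.20 in K5/K14 tumours (adjusted p = 0.065). The call depended on the libraries and on the scaling. Within the 15 libraries Il1r1 was lowered in both groups, by -0.88 ± 0.16 (adjusted p = 0.00033) and -0.43 ± 0.12 (adjusted p = 0.0066), and without Ivl tumour 3 it was lowered in both, by -0.82 (adjusted p = 0.00021) and -0.44 (adjusted p = 0.0071). Without K14 tumour 1 it was also called in both (-0.61 and -0.50), and without K5 tumour 5 in K5/K14 tumours (-0.47).

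Il1r2, the decoy, was spread over 8.78, 24.2, 31.2 and 41.9 CPM in skin. Ivl tumours ran from 15 to 35.6 CPM (median 20.2) and K5/K14 tumours only from 13.2 to 17.7 CPM (median 15.1), and all 15 tumours lay inside the skin range. It was the 1 gene of the 10 lowered in K5/K14 tumours (log2 -0.83 ± 0.26, adjusted p = 0.0099), and no member was lowered in Ivl tumours, where its log2 fold change was -0.22 ± 0.28 (adjusted p = 0.54). Of all genes 38.9% were lowered in K5/K14 and 15.5% in Ivl tumours, and within the 15 libraries 42.3% and 32.7%, where 2 members (Il1r1 and Il1r2) and 1 member (Il1r1) were lowered. Without skin replicate 4, the highest library, the Il1r2 value in K5/K14 tumours was -0.52 and was not called (adjusted p = 0.090).

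Il1rl1, the IL-33 receptor carried by mast cells, innate lymphoid cells and endothelium, fell into 2 levels in skin. It had 1.0 and 0.247 CPM in skin replicates 1 and 2, and 15.6 and 16.1 CPM in replicates 3 and 4. Tumours ran from 1.88 to 18.2 CPM in the Ivl group and from 4.61 to 19.6 CPM in the K5/K14 group. The log2 fold changes of 0.27 ± 0.78 (adjusted p = 0.78) and 0.42 ± 0.73 (adjusted p = 0.63) leave a wide margin either way, and their sign turned with library totals in place of TMM. The summed CPM of 8 endothelial markers was 68.9 and 92.5 in skin replicates 1 and 2 and 376 and 438 in replicates 3 and 4, and that of 9 mast cell markers was 51.3, 17.3, 164 and 182 in replicates 1 to 4. The same skin libraries were also parted by fibroblast markers (3378 and 876 against 13467 and 18752 CPM) and macrophage and monocyte markers (272 and 148 against 1190 and 1538 CPM). T cell and innate lymphoid, neutrophil and adipocyte markers parted them too. Basal and differentiated keratinocyte, sebaceous and muscle markers did not. The part of any of these cells in the skin levels of Il1rl1 was not tested.

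**Figure D2:**
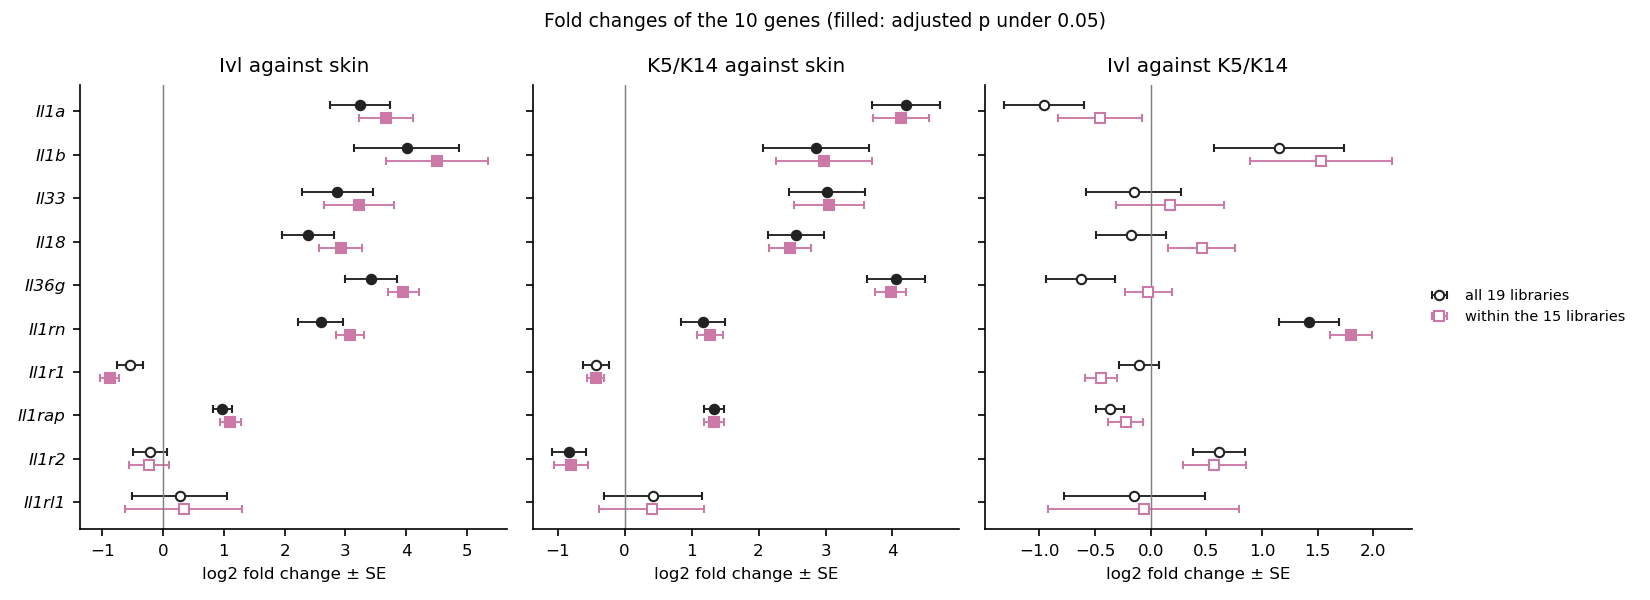
Log2 fold change ± SE (x axis) of the 10 genes (y axis) in the comparisons Ivl against skin, K5/K14 against skin and Ivl against K5/K14, for all 19 libraries (circles) and within the 15 libraries (squares), filled where the adjusted p was under 0.05. Against skin 7 genes are filled and above 0 in both tumour groups, Il1r1 is filled only within the 15 libraries, and between the tumour groups Il1rn alone is filled, at 1.42 and 1.80.

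The scaling decided how many genes of the whole table moved each way. With TMM, 6535 genes were raised and 4980 lowered in Ivl tumours, and with the size factors of DESeq2 5712 were raised and 6828 lowered, while the median log2 fold change of all genes went from -0.39 to -0.50. For K5/K14 tumours the counts were 7440 raised and 12476 lowered with TMM. With library totals and no TMM, the median of all genes stood at -0.95 in Ivl and -1.13 in K5/K14 tumours. The 5 agonist ligands stayed raised in both groups under each of these.

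The second question was whether the family differed between tumours of the 2 origins. Il1rn was the 1 gene of the 10 that differed. It was 2.68-fold higher in Ivl than in K5/K14 tumours (log2 1.42 ± 0.27, adjusted p = 0.019), beside 1.77% of all genes raised and 0.593% lowered. The mean was 236 ± 110 CPM in 6 Ivl tumours, 86.2 ± 40.4 CPM in 5 K5 tumours and 90.4 ± 14.6 CPM in 4 K14 tumours (SD). The lowest Ivl tumours, at 108, 155 and 164 CPM, are the 3 that share the batch trace, and the other 3 had 296, 299 and 393 CPM. Within the 15 libraries the groups did not overlap and the log2 difference was 1.80 ± 0.19 (adjusted p = 0.00045), beside 0.213% of genes raised and 0.197% lowered. Leaving out any 1 library kept the call, with log2 differences between 1.21 and 1.55.

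None of the agonist ligands passed the test between the tumour groups. Il1a was 1.94-fold higher in K5/K14 tumours (log2 -0.96 ± 0.36 for Ivl minus K5/K14, adjusted p = 0.14), and Il1b 2.22-fold higher in Ivl tumours (log2 1.15 ± 0.58, adjusted p = 0.27). Within the 15 libraries these values were -0.46 ± 0.38 (edgeR adjusted p = 0.71) and 1.53 ± 0.64 (edgeR adjusted p = 0.38). Il36g differed by -0.63 ± 0.31 (adjusted p = 0.25), and by -0.02 ± 0.21 within the 15 libraries. Il33 (-0.15 ± 0.43) and Il18 (-0.18 ± 0.32) were close, and their sign turned within the 15 libraries. Il1rap (-0.37 ± 0.13, adjusted p = 0.11), Il1r1 (-0.11 ± 0.18), Il1r2 (0.61 ± 0.23, adjusted p = 0.14) and Il1rl1 (-0.15 ± 0.63) were not called either. Within the 15 libraries the 2 tumour groups did not overlap for Il1r2, which was still not called (0.57 ± 0.28, edgeR adjusted p = 0.47).

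The balance of antagonist to agonist was measured within each library as the log2 ratio of Il1rn counts to the sum of Il1a and Il1b counts, which needs no scaling between libraries. In the 4 skin libraries it was 3.73, 2.86, 3.04 and 2.54. In K5 tumours it was -1.23, 0.62, 0.48, 0.03 and -0.49, and in K14 tumours 1.02, 1.83, 0.31 and 0.56. All 9 lay below every skin library, and their mean was 0.35 ± 0.87 (SD) against 3.04 ± 0.51 in skin, a 6.48-fold lower ratio (two-sided exact permutation test over 715 splits, p = 0.0014, the smallest it can give, and adjusted p = 0.0040 over 6 ratio tests). In Ivl tumours the ratio was 3.81, 1.43, 1.2, 2.27, 1.53 and 1.99, with a mean of 2.04 ± 0.95. The difference of -1.0 from skin was not called (exact permutation p = 0.095, adjusted p = 0.14), but without Ivl tumour 1 it was -1.36 (exact permutation p = 0.0079 before adjustment). Within the 15 libraries all 3 Ivl tumours lay below every skin library, with a difference of -1.11. It was not called there (exact permutation p = 0.057 over 35 splits, adjusted p = 0.086). The K5/K14 difference there was -2.50 (exact permutation p = 0.0020, adjusted p = 0.012).

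Ivl tumours had 3.23-fold more antagonist per agonist than K5/K14 tumours (log2 difference 1.69, exact permutation over 5005 splits, p = 0.0020, adjusted p = 0.0040). The geometric mean ratio was 4.11 in Ivl tumours, 1.27 in K5/K14 tumours and 8.25 in skin. The groups overlapped in that K14 tumour 2 (1.83) stood above 3 Ivl tumours. Within the 15 libraries the difference was 1.39 (exact permutation p = 0.012, adjusted p = 0.024). These are ratios of RNA counts and say nothing of the proteins.

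The second ratio set the decoy Il1r2 against the signalling receptor Il1r1. It was -0.65, -0.84, -0.72, -0.14, -0.36 and -0.01 (log2) in Ivl tumours, and between -1.62 and -0.74 in the 9 K5/K14 tumours, with means of -0.45 ± 0.34 and -1.19 ± 0.30 (SD). The groups overlapped at their edges. The ratio was 1.66-fold higher in Ivl tumours (log2 difference 0.73, exact permutation p = 0.0010, adjusted p = 0.0040), and 1.99-fold higher within the 15 libraries, where the groups did not overlap (adjusted p = 0.018), although neither gene alone was called between the groups. Skin spanned both, from -2.41 in replicate 1 to -0.28 in replicate 4, and differed by the test from neither Ivl (difference 0.55, exact permutation p = 0.23) nor K5/K14 tumours (difference -0.18, exact permutation p = 0.61). Within the 15 libraries these differences were 0.84 (exact permutation p = 0.17) and -0.16 (exact permutation p = 0.69).

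**Figure D3:**
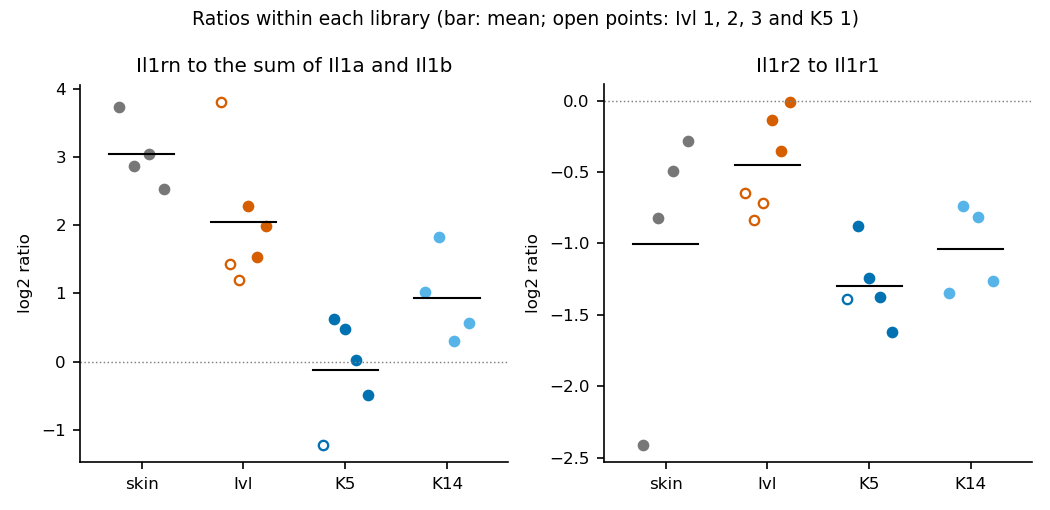
Log2 ratio of Il1rn to the sum of Il1a and Il1b, and of Il1r2 to Il1r1 (y axes), in each library of normal skin, Ivl, K5 and K14 tumours, with a bar at the group mean and open points for Ivl tumours 1, 2 and 3 and K5 tumour 1. The first ratio lies at 2.54 to 3.73 in skin and at or below 1.83 in all K5 and K14 tumours, and the second is higher in Ivl than in K5 and K14 tumours.

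The third question was whether the 2 basal drivers differed. None of the 10 genes was called between K5 and K14 tumours, and of all genes 0.0% were raised and 0.0% lowered by edgeR, where 1945 genes had an unadjusted p under 0.05 and DESeq2 called 173. Within the 15 libraries 0.0219% of genes were raised and 0.0313% lowered, again with no member. The widest difference was that of Il1a, at 70.8 ± 19.6 CPM in 5 K5 tumours and 37.4 ± 14.7 CPM in 4 K14 tumours (SD, log2 0.92 ± 0.41, adjusted p = 0.80), and K14 tumours 1 and 2 lay below all K5 tumours. Il1b was level (log2 0.00 ± 0.77) and so was Il1rn (-0.07 ± 0.36).

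The tumours were not alike within a group. Ivl tumour 1 was the lowest of the 15 tumours for Il1a, Il33, Il18, Il1r1 and Il1rl1 and the second lowest for Il1b, Il36g and Il1rap, yet rank 4 for Il1rn. It also had the lowest summed basal keratinocyte markers of the tumours, at 10888 CPM against 32994 to 66552 CPM in the other 14, and the lowest summed neutrophil (9.57 CPM), macrophage and monocyte (270 CPM), T cell and innate lymphoid (58.3 CPM) and endothelial markers (102 CPM). Its differentiated keratinocyte markers, at 30025 CPM, were not low. Ivl tumour 3 was the highest for Il1r1 and Il1r2 and the lowest for Il36g and Il1rap. It also had the lowest summed differentiated keratinocyte markers of the tumours (11697 CPM) and the highest macrophage and monocyte (1034 CPM) and T cell and innate lymphoid markers (266 CPM). Its fibroblast markers, at 11090 CPM, were the highest of the Ivl tumours, the others having 1659 to 4074 CPM, and lay inside the K5/K14 range (4191 to 15709 CPM). Its sebaceous (2926 CPM) and muscle markers (2704 CPM) were exceeded among tumours only by those of Ivl tumour 2 (3052 and 7113 CPM). The part of these cells in the levels of Ivl tumours 1 and 3 was not tested. The highest Il1b stood in Ivl tumour 5 at 75.3 CPM and the lowest in K14 tumour 2 at 1.84 CPM. K5 tumour 1 combined the highest Il36g of all tumours, 657 CPM, with the lowest Il1rn, 35.1 CPM.

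**Figure D4:**
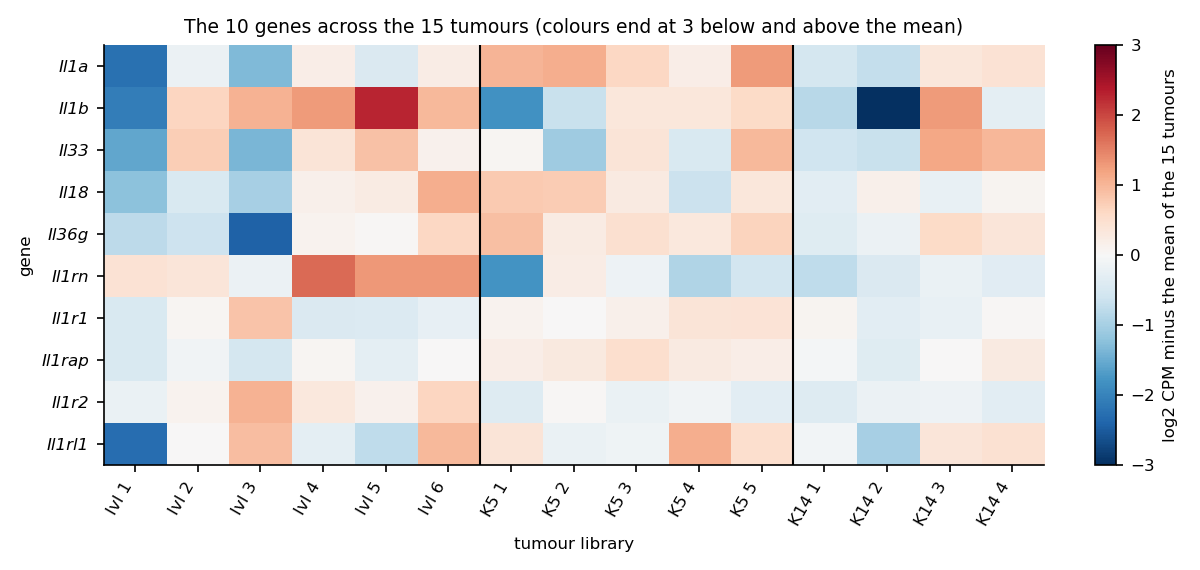
Log2 CPM of the 10 genes (rows) in the 15 tumours (columns, in groups Ivl, K5 and K14 parted by lines), as the difference from the mean of the 15 tumours, blue below and red above. Ivl tumour 1 is low for most ligands, Il1rn is high in Ivl tumours 4, 5 and 6, and Il1b ranges most widely.

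For each gene, the 3 genes with the most similar log2 CPM over the 15 tumours were sought among 14945 genes. This is a description of 15 points that share a batch adjustment and a normalisation. Ivl and K5/K14 tumours were pooled, so a difference between the groups, such as that of Il1rn, also enters r. The nearest to Il1b were Clec4e, Clec4d and Acod1, with Pearson r of 0.96, 0.94 and 0.93, and 0.96, 0.93 and 0.94 over the 11 tumours outside the set of 4. All are genes of activated myeloid cells. The nearest to Il36g were Trex2, Sdr9c7 and Tpi1 (0.96 each, and 0.64, 0.91 and 0.79 over the 11 tumours). Pglyrp4, Rhov and Fam110a were nearest to Il1a (0.92 each, and 0.77, 0.78 and 0.80 over the 11). The nearest to Il1rn were Krt13, a keratin of stratified mucosal epithelium, Lrpprc and D16Ertd472e (0.91 each, and 0.93, 0.88 and 0.95 over the 11).

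Il33 was nearest to Ell2, Hif1a and Fam214b (r of 0.92, 0.92 and 0.87, and 0.89, 0.90 and 0.85 over the 11 tumours). Il18 was nearest to 9930012K11Rik, Gm45609 and Rufy1 (0.93, 0.92 and 0.91, and 0.97, 0.80 and 0.90 over the 11). Il1rap was nearest to Shf, Mob3a and Klk7 (0.91, 0.90 and 0.90, and 0.85, 0.87 and 0.86 over the 11). Il1rl1 was nearest to Entpd1, Sparcl1 and Ecscr (0.92, 0.89 and 0.88, and 0.85, 0.82 and 0.81 over the 11), genes with endothelial expression. Il1r1 was nearest to Usp42, Shox2 and Samd14 (0.93, 0.92 and 0.92, and 0.95, 0.92 and 0.84 over the 11). Il1r2 was nearest to Zfp72, Ccdc112 and 5530601H04Rik (0.88, 0.87 and 0.87, but 0.77, 0.69 and 0.68 over the 11). No member was among the 3 nearest of another member.

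Of 10 other genes of the IL-1 family tested, 4 were raised and 1 lowered in Ivl tumours, where 20.4% of all genes were raised and 15.5% lowered, and 4 raised and 4 lowered in K5/K14 tumours, where the shares were 23.2% and 38.9%. The medians were -0.02 and -0.20 log2 beside -0.39 and -0.50 for all genes. The 4 raised in each were the IL-36 agonists Il1f6 and Il1f8, the IL-36 receptor antagonist Il1f5 and the IL-36 receptor Il1rl2. Il1f6 went from 6.64 CPM in skin to 238 CPM in Ivl (log2 5.16 ± 0.75, adjusted p = 4.2e-05) and 213 CPM in K5/K14 tumours (log2 5.0 ± 0.73, adjusted p = 2.4e-05). Il1f8 rose by 4.14 ± 0.56 and 4.35 ± 0.56 log2 (adjusted p = 2.6e-05 and 6.3e-06), and Il1f5 by 2.63 ± 0.39 and 3.05 ± 0.38 (adjusted p = 3.7e-05 and 4.2e-06). Il18bp, which binds and blocks IL-18, was lowered from 6.11 CPM in skin to 3.39 CPM in Ivl (log2 -0.84 ± 0.32, adjusted p = 0.045) and 2.77 CPM in K5/K14 tumours (-1.13 ± 0.29, adjusted p = 0.0026). The others lowered in K5/K14 tumours were the IL-18 receptor chain Il18r1 (-0.94 ± 0.38, adjusted p = 0.039), Il1f10 (-1.31 ± 0.41, adjusted p = 0.011) and Il1rapl1, which had a mean of only 0.133 CPM in skin. Il18rap, the second IL-18 receptor chain (0.15 and -0.14 log2), and Sigirr, an inhibitory receptor (-0.18 and -0.27), were not called in either group. Within the 15 libraries 4 were raised and 3 lowered in Ivl, and 4 raised and 4 lowered in K5/K14 tumours. Il1f6 and Il1f8 are also in the list that the study chose on these samples.

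Of 19 genes that process or release IL-1 family cytokines, 7 were raised and 2 lowered in Ivl tumours, beside 20.4% and 15.5% of all genes. In K5/K14 tumours 7 were raised and 7 lowered, beside 23.2% and 38.9% of all genes, so their lowered share lay near the background. The medians were -0.04 and -0.03 log2, beside -0.39 and -0.50 for all genes. With the set of 4 left out, 7 were raised and 7 lowered in Ivl, and 7 raised and 8 lowered in K5/K14 tumours. Casp8, a caspase that can cleave IL-1 beta, rose by 0.88 ± 0.17 and 1.44 ± 0.17 log2 (adjusted p = 0.00052 and 2.3e-06). Capn1 and Capn2, whose calpain proteases cleave IL-1 alpha, rose by 0.76 ± 0.14 and 1.07 ± 0.22 in Ivl (adjusted p = 0.00037 and 0.00094) and by 0.77 ± 0.14 and 1.2 ± 0.21 in K5/K14 tumours (adjusted p = 0.00012 and 0.00013). Gsdme, a pore-forming gasdermin, was lowered by -0.88 ± 0.30 and -1.50 ± 0.27 (adjusted p = 0.029 and 0.00014). Elane, a neutrophil granule protease, was lowered in both, from a mean of only 0.141 CPM in skin (adjusted p = 0.0013 and 0.0012).

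In the MyD88 and NF-kB list, 11 of 24 genes were raised in each tumour group, beside 20.4% (Ivl) and 23.2% (K5/K14) of all genes, with 0 lowered in Ivl and 2 lowered in K5/K14 tumours, beside 15.5% and 38.9%. The medians were 0.25 and 0.31 log2. In the fit of the 15 libraries 12 were raised and 2 lowered in each group. Myd88, the adaptor of IL-1 receptors, rose by 1.34 ± 0.19 and 1.59 ± 0.19 (adjusted p = 3.1e-05 and 2.4e-06), the kinase gene Irak4 by 0.90 ± 0.16 and 1.18 ± 0.16 (adjusted p = 0.00027 and 7.7e-06) and Tollip, which restrains the receptor complex, by 0.90 ± 0.15 and 1.09 ± 0.14 (adjusted p = 0.00012 and 6.3e-06). The NF-kB subunit Rel was lowered in K5/K14 tumours (-0.84 ± 0.16, adjusted p = 0.00023), as was the inhibitor Nfkbie (-0.89 ± 0.31, adjusted p = 0.018).

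Genes that IL-1 or IL-36 can induce were raised for the most part. Of 24 tested, 16 were raised and 0 lowered in Ivl tumours, and 19 raised and 1 lowered in K5/K14 tumours, beside the same shares of all genes, with median log2 fold changes of 3.63 and 4.67. S100a8, an antimicrobial protein of stressed keratinocytes and of neutrophils, went from 10.5 CPM in skin to 966 CPM in Ivl (log2 6.51 ± 0.85, adjusted p = 2.2e-05) and 1403 CPM in K5/K14 tumours (log2 7.05 ± 0.86, adjusted p = 4.3e-06). The defensin Defb14 rose by 5.01 ± 0.73 and 5.30 ± 0.73 (adjusted p = 4.4e-05 and 1.4e-05), and Il23a, a subunit of IL-23, by 2.54 ± 0.43 and 2.87 ± 0.42 (adjusted p = 0.00012 and 1.9e-05). Csf1, a growth factor of macrophages, was lowered in K5/K14 tumours (-1.01 ± 0.32, adjusted p = 0.011). Other cytokines induce many of these genes too, and the keratinocyte and neutrophil markers given above rose alongside them. The fit of the 15 libraries had 16 raised and 1, Csf1, lowered in Ivl, and 19 raised and 1 lowered in K5/K14 tumours. Each call against skin of a gene named from the 4 lists was also made within the 15 libraries. Between the tumour groups, Casp8 (-0.57 ± 0.14, adjusted p = 0.038) and Rel (0.59 ± 0.14, adjusted p = 0.038) were the genes of the 4 lists called over all 19 libraries, and neither was called within the 15. There the inflammasome sensor gene Aim2 was called instead, raised in Ivl tumours by 1.16 ± 0.21 log2 (adjusted p = 0.023), against 0.43 ± 0.31 (adjusted p = 0.45) over all 19. Between K5 and K14 tumours the chemokine gene Cxcl1 was called within the 15, higher in K5 by 2.41 ± 0.39 log2 (adjusted p = 0.046). Aim2 and Cxcl1, like Il18r1, Il1f10, Il1rapl1, Il18rap and Sigirr above, were named after their values were seen.

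**Figure D5:**
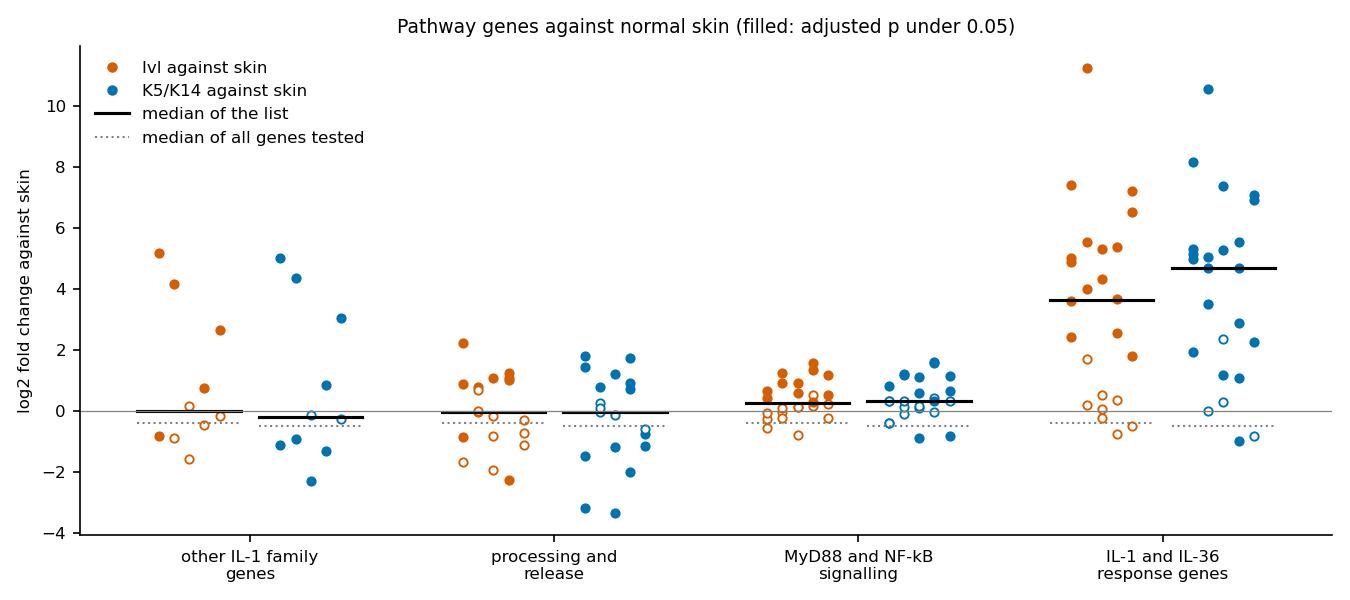
Log2 fold change against skin (y axis) of each gene of the 4 pathway lists (x axis) in Ivl and K5/K14 tumours, filled where the adjusted p was under 0.05, with the median of the list (solid bar) and of all genes tested (dotted bar). The IL-1 and IL-36 response genes stand highest, with medians of 3.63 and 4.67, while processing and release genes centre near -0.04 and -0.03.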

How the data were processed

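RNA of 15 tumours and 4 samples of normal skin was sequenced as strand-specific poly(A) libraries. Per the labels and the study's methods, the authors checked reads with FastQC 0.11.8, trimmed them with Trim Galore, aligned them to GRCm38 with HISAT2 2.1.0, counted them with featureCounts (Subread 1.6.3) and adjusted the table for batch with ComBat-seq. The deposited values are therefore estimated counts, all whole numbers, of 34807 genes, and were not scaled by library size. The design had assumed plain counts, and the same test was kept. Strand use in counting is not stated in the sources used here.

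Genes reaching 5 counts in any 1 library were tested with edgeR 4.0.16 (R 4.3.3): TMM scaling, quasi-likelihood F test, 2-sided, Benjamini-Hochberg adjusted over 32031 genes. Errors are standard errors from the fit, with a prior count of 2. The 3 groups, with K5 and K14 merged as in the study, entered 1 fit over 19 libraries, and K5 and K14 were compared in a fit of 4 groups. Ratios were compared by exact permutation of libraries. Nothing states whether each library came from its own mouse, so p-values measure the spread between these libraries. Chi-square per degree of freedom was at least 28.9 in each of 37 pairs of libraries of a group, so none was counted as a duplicate. Same-numbered libraries of different groups did not deviate together for the most part (median r -0.04 over 25 pairs, from -0.38 to 0.53). The median over 109 pairs with other numbers was -0.01. Samples were therefore treated as unpaired, although a median cannot exclude that some numbers pair samples. Gene models came from GENCODE mouse release M21, which matched 34694 identifiers, with 113 unmatched. All 10 genes had a RefSeq promoter, 15 in all. Python 3.11.15 with pandas 2.3.3, numpy 2.4.6 and matplotlib 3.10.9 made the summaries.

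The genes and lists were chosen with earlier results of these data known. All 10 members were named. Of each pathway list the 3 genes with the smallest adjusted p against skin were named, and called genes going against their list. Marker lists covered the other cell types that skin holds. The edgeR fit was tested on simulated counts. Alternatives were DESeq2 1.42.0 and its size factors, other count filters, the 15 libraries alone, the set of 4 as a covariate, a replicate block, leaving out each library and, chosen after seeing the data, library totals without TMM.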

Additional observations from a re-analysis of the deposited data

Results flagged for a closer look

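The Il1rn difference between the tumour groups was picked out because its change against skin was not the same in Ivl and K5/K14 tumours, by 1.42 on the log2 scale (edgeR adjusted p = 0.019). The same held for the log2 ratio of Il1rn to the sum of Il1a and Il1b, which differed by 1.69 between the groups, and for the log2 ratio of Il1r2 to Il1r1, which differed by 0.73 (exact permutation test, adjusted p = 0.0040 for each). Skin replicate 1 stood below the other 3 skin libraries for Il36g, at 4.29 log2 CPM with a gap of 0.96 of the range of the group. Chance gives about 1 such library in 20 groups, and this was the only 1 among 48 groups examined. It is thus not more than chance gives.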

How the results depend on the processing

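The raised counts of the 10 genes stayed at 7 against skin in both tumour groups under 7 of 8 other settings and when any 1 of 19 libraries was left out. The exception was library totals without TMM (chosen after seeing the data), where Il1rap in Ivl (log2 0.26) and Il1rn in K5/K14 tumours (0.36) were not called. The lowered counts moved because Il1r1 or Il1r2 crossed the threshold, Il1r2 with library totals in Ivl tumours (-0.85, adjusted p = 0.020) and without skin replicate 4 in K5/K14 tumours (-0.52, adjusted p = 0.090). In Ivl tumours 1 gene was lowered with the DESeq2 size factors, filterByExpr, DESeq2, the 15 libraries alone and the set of 4 as covariate, and 2 with library totals, against 0, and in K5/K14 tumours 2 were lowered under all 6 of these, against 1. With 1 library left out, the lowered counts ran from 0 to 1 in Ivl and from 0 to 2 in K5/K14 tumours. All genes called in Ivl against skin numbered 17566 within the 15 libraries and 18328 with library totals, against 11515. Between Ivl and K5/K14 tumours they numbered 2133 with DESeq2, 131 within the 15 libraries, 449 with the covariate and 46 with a replicate block, against 756, and from 127 (without K5 replicate 1) to 1328 (without K14 replicate 1) when 1 library was left out. Between K5 and K14 tumours they were 173 with DESeq2 and 17 within the 15 libraries, against 0.

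With the replicate number as a block, 0 of the 10 genes were raised between Ivl and K5/K14 tumours, where Il1rn stood at 1.32 log2 (edgeR adjusted p = 0.077). Whether any of these numbers pair samples is not known. With 1 library left out, the log2 ratio of Il1rn to the sum of Il1a and Il1b in Ivl tumours against skin ran from -1.36 to -0.77, and had an unadjusted p under the threshold only without Ivl replicate 1. That of Il1r2 to Il1r1 in K5/K14 tumours against skin ran from -0.65 (without skin replicate 1, where the unadjusted p passed) to 0.058 (without skin replicate 4, where the sign turned). The other ratio results kept their side of the threshold and their direction, with a prior count of 0.5 too. The cause of these changes was not tested. All members were counted in every library, with the fewest counts for Il1rl1 in skin replicate 2 (22) and Il1b in skin replicate 1 (30). The part of depth was not tested. The 4 skin libraries and a batch adjustment of unknown error limit the folds against skin.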
